A study of Mus musculus with 33 samples.

Results

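The T cell receptor variable gene segments of the mouse were followed in bulk RNA-Seq libraries of sorted Tregs and CD4+GFP- T cells. Members were the rows of the count tables whose Ensembl identifier belongs, in the GRCm38 annotation, to the biotype TR_V_gene with a symbol that starts with Trav (alpha chain) or Trbv (beta chain). This gave 130 segments, 108 Trav and 22 Trbv, of 31054 features counted. The Trav members lie at chr14:52427928-53977678 in 21 families and the Trbv members at chr6:40891229-41558452 in 19 families, a family being the symbol up to its first hyphen without a final d or n.

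All mice were DEREG mice, which carry a diphtheria toxin receptor fused to eGFP under the Foxp3 promoter on the C57BL/6 background, so GFP marked Foxp3+ cells. Tolerant mice had porcine neonatal islet cell clusters (NICC) under the renal capsule, were given the anti-CD154 antibody MR-1 on days 0, 2, 4 and 6 and CTLA4-Fc on day 0, and gave cells on day 100, while naive mice had neither graft nor treatment. The 27 CD4+ libraries formed 9 groups of 3, namely CD4+GFP- cells of the spleen (SP) of naive and of tolerant mice (below, CD4+ cells), SP/naive Tregs, SP/CD127-/lo Tregs, SP/CD127hi Tregs, graft Tregs, and, from the graft-draining lymph node (DLN), DLN/CD127hi, DLN/CD127-/lo and DLN/naive Tregs. CD127 (the IL-7 receptor alpha chain) subsets and graft Tregs came from tolerant mice, and 6 libraries of CD45+CD4- cells from the same spleens served as a comparison. Each library was made from 1000 sorted cells of a pool of a few mice. The naive mice the study lists would not fill separate pools, so naive libraries of a group may share animals, and p-values measure the spread between libraries, which may be technical in part. Different groups of tolerant mice may share animals too, which the main tests do not take into account. Naive nodes came from female mice and all other cells from males, so sex and treatment cannot be told apart in the node.

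A variable segment is joined to a J segment (and, in the beta chain, a D segment) by V(D)J recombination while a T cell develops in the thymus, and all descendants of that cell keep the join. A bulk library therefore mixes the segments of all its cells, and an expanded clone raises the share of its own pair of segments. Trav segments encode most of the alpha variable domain and Trbv segments most of the beta variable domain, which together bind peptide and MHC. The mouse alpha locus holds a repeated block, whose copies are marked d and n in the symbols, and 10 of the members have a dual name with dv because the delta chain can use them too.

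To show how far these reads can tell one segment from another, the 75 bases (1 read length) at the 3′ end of the V exon are printed for members on which the results turn, from GENCODE transcripts on GRCm38, plus strand, 5′ to 3′. In the Trbv13 family, capitals mark bases that differ from Trbv13-2 (chr6:41121758-41121832), by 10 bases in Trbv13-3 (chr6:41130511-41130585) and 11 in Trbv13-1 (chr6:41116394-41116468). Trbv3 (chr6:41048754-41048828), the segment with the most reads, is shown for its own end.
Trbv3: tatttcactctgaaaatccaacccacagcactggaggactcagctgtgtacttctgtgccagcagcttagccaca
Trbv13-2: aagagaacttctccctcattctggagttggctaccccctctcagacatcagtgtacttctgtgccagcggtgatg
Trbv13-3: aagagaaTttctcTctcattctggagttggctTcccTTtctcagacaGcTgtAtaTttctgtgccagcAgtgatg
Trbv13-1: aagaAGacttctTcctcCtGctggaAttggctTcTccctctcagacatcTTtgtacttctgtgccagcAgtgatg

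In the Trav14 family, the largest by reads, copies differ far less. Capitals mark bases that differ from the first line of each set, Trav14d-3-dv8 (chr14:53078971-53079045) for Trav14-3 (3 bases, chr14:53763620-53763694) and Trav14n-3 (4 bases, chr14:53370501-53370575), and Trav14-1 (chr14:53554484-53554558) for Trav14d-1 (2 bases, chr14:52856092-52856166). Trav14n-1 (chr14:53167104-53167178) has the same 75 bases as Trav14d-1.
Trav14d-3-dv8: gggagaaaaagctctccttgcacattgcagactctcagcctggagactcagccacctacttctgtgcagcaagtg
Trav14-3: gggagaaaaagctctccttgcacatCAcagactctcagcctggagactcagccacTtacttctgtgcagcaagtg
Trav14n-3: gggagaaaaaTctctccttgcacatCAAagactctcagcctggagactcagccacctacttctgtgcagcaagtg
Trav14-1: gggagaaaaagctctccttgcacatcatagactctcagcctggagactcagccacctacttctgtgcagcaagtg
Trav14d-1: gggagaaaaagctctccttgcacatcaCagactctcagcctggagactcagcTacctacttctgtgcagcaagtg

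The segment of the invariant alpha chain of NKT cells is shown because it cannot be read here. Trav11d (chr14:52824838-52824912) and Trav11 (chr14:53519784-53519858) share these 75 bases, which reach the end of the annotated exon in Trav11d and stop 1 base before it in Trav11.
Trav11d: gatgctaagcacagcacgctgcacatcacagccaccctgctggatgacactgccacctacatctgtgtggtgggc

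The 27 CD4+ libraries held 844039 to 4615283 reads on genes (read pairs counted once), and the 9 DLN libraries, from another sequencer than spleen and graft, at most 1935323, so tissue and sequencer cannot be told apart in a comparison of DLN with the rest. The summed level of 4 Treg genes was 5172 to 18990 CPM (reads per 1000000 reads on genes) in the 7 Treg groups and 465 to 1607 CPM in the CD4+ cells, with no overlap. Some markers of other cells reached their highest values among the CD4+ groups in DLN/CD127hi Tregs. There 4 B cell genes summed to 138 to 504 CPM, 4 macrophage genes to 648 to 899 CPM, 2 plasma cell genes to 122 to 1672 CPM (at most 34.5 CPM in the CD4+ groups of spleen and graft), and 2 CD8 genes to at most 223 CPM, against 0 to 36.0 CPM for CD8 genes in spleen and graft. The other node groups held such markers too and overlapped DLN/CD127hi Tregs in part. Macrophage genes summed to 93.7 to 846 CPM in DLN/CD127-/lo and 3.04 to 362 CPM in DLN/naive Tregs. Plasma cell genes reached 165 CPM in DLN/naive Tregs. CD8 genes reached 62.7 CPM there, against 1.72 CPM in the lowest DLN/CD127hi library. In the CD45+CD4- libraries the CD8 genes summed to 246 to 749 CPM. The part of these cells in the results on segments was not tested.

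The 130 segments took 90342 reads in the 27 CD4+ libraries, 0.114% of all reads on genes, 54111 on Trbv and 36231 on Trav. In 33 libraries, 35 members had no read, and all 35 were Trav segments. Reads fell on 95 members in the CD4+ libraries, and Trbv3 and Trbv12-2 were the only 2 with reads in all 27.

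Which Trav segments had reads followed how much of their sequence is their own. Counts held only reads with 1 place in the genome, and 6.43% to 14.1% of the reads of a library mapped to several places and were in no row. For 36 Trav segments no window of 75 bases was unique among the annotated segments. Of these, 30 had no read, none had over 3 and together they took 9 reads, 0.025% of Trav reads. The 53 Trav segments with at least 50% unique windows took 88.6% of Trav reads, with a median of 433 reads, and the 19 in between took 11.4%. Trav23 was the only one of 13 fully unique Trav segments without a read.

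The repeated block showed the same in its copies. The 34 d copies took 13.1% of Trav reads and the 28 n copies 11.2%, while 46 others took 75.6%. Trav14d-1 and Trav14n-1 had 0 reads with 0% unique windows, beside 2101 reads for their relative Trav14-1, which is 100% unique. A segment at 0 reads in these libraries is thus not shown to be unused. This held for Trav11 (0 reads) and Trav11d (1 read), both with 0% unique windows, so the NKT alpha segment could not be measured. Trav1, the alpha segment of MAIT cells, was readable and had 289 reads in 15 of 27 libraries.

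In the beta locus 20 of 22 segments were fully unique and took 99.0% of Trbv reads. Trbv4 (222 reads) and Trbv5 (320 reads) overlap the gene 5830405F06Rik, had 30.1% and 24.5% unique windows, and are uncertain for that reason. Trbv21 (78 reads in 4 libraries) and Trbv30 (231 reads in 9 libraries) had reads in the fewest libraries of the locus, and both are named here after their values were seen. Trbv31, the only segment of the locus on the minus strand, had 2652 reads in 24 libraries.

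Reads on segments, as a share of the library, separated CD4+ cells from CD45+CD4- cells. Trav summed to 764, 593 and 650 CPM in SP/naive CD4+ cells and 801, 691 and 660 CPM in SP/tolerant CD4+ cells (replicates 1, 2 and 3 here and below). In the CD45+CD4- libraries the range was 29.2 to 119 CPM, with no overlap. Trbv summed to 885, 299.94 and 823 CPM and to 1484, 989 and 1305 CPM in the same CD4+ groups, against 33.7 to 195 CPM in CD45+CD4- cells. The 4 B cell genes summed to 2706 to 5715 CPM in the CD45+CD4- libraries and to at most 78.2 CPM in these CD4+ groups. Since these are bulk samples, the parts of fewer T cells and of less receptor RNA in each of them cannot be told apart.

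Among spleen cells, Tregs had fewer segment reads than CD4+ cells. Trav was 693 ± 77.1 CPM in CD4+ cells (SD, n = 6) and 290.03 ± 104 CPM in splenic Tregs (SD, n = 9), a log2 ratio of the means of -1.26, and the ranges of 593 to 801 and 140 to 508 did not overlap. Trbv was 964 ± 413 CPM against 561 ± 408 CPM, a log2 ratio of -0.781, with ranges that overlapped. SP/CD127-/lo Tregs held the most Trbv among Tregs, with 1347, 542 and 984 CPM. SP/CD127hi Tregs, from the same mice, had 341, 350 and 134 CPM.

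The constant genes, which every receptor mRNA carries, did not pass the test in the comparison of splenic Tregs with CD4+ cells. Trac (alpha constant region) had a log2 fold change of -0.55 (SE 0.234, adjusted p = 0.362, quasi-likelihood test of edgeR, Benjamini-Hochberg over 25347 genes), and Trbc1 one of -0.48 (adjusted p = 0.276). Cd3d, of the CD3 complex that carries the receptor's signal, had -0.47 (adjusted p = 0.294), and Trbc2, Cd3e, Cd3g and Cd247 had -0.20, -0.12, -0.22 and -0.54, none of them called. Per read on Trac, Trav reads numbered 0.774 ± 0.352 in CD4+ cells (SD, n = 6) and 0.358 ± 0.113 in splenic Tregs (SD, n = 9). The ranges, 0.444 to 1.42 and 0.228 to 0.550, overlapped. Divided by constant gene reads, the log2 ratio of Trav was -1.06 and that of Trbv -0.558. These sums over segments have no test of their own.

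**Figure D1:**
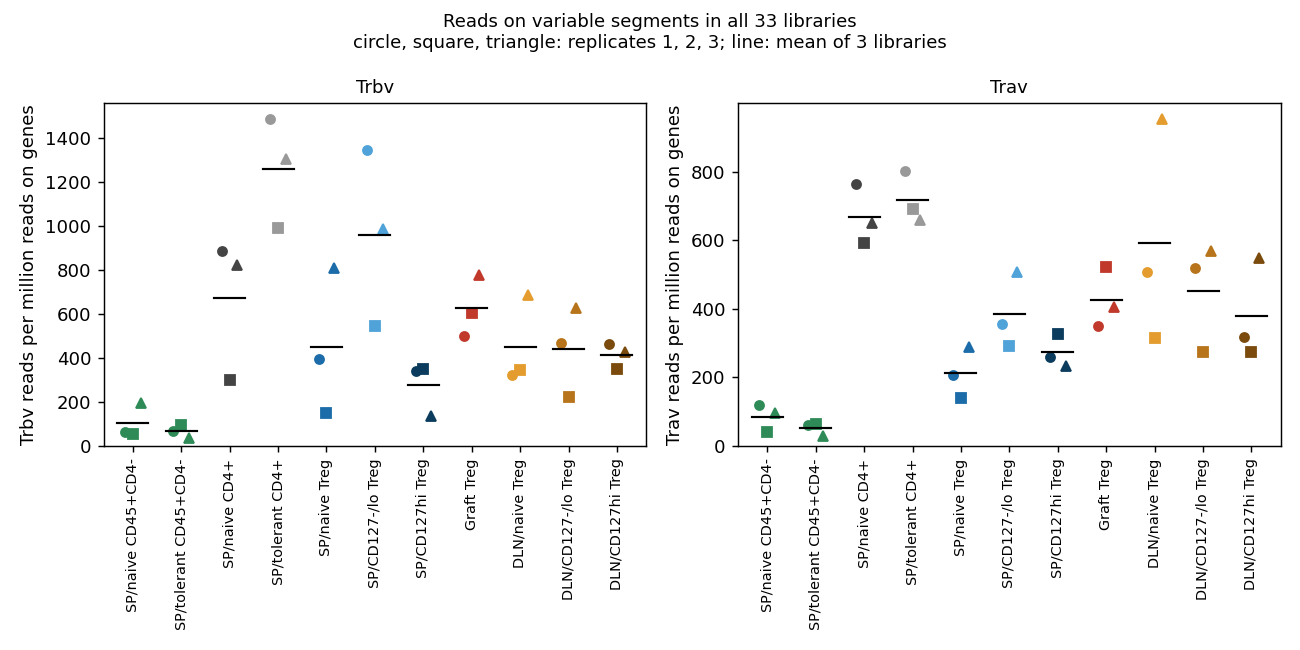
Trbv (left) and Trav (right) reads in CPM in each of the 33 libraries, by group, with circles, squares and triangles for replicates 1, 2 and 3 and a line at the mean of 3. For Trav the 6 spleen CD4+ libraries lie at 593 to 801, above all 9 splenic Treg libraries at 140 to 508.

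Trbv3 was the leading beta segment by reads. Its share of Trbv reads was 17.9%, 15.8% and 15.8% in SP/naive CD4+ cells and 14.7%, 12.45% and 16.5% in SP/tolerant CD4+ cells. It was 22.3%, 8.64% and 15.5% in SP/naive Tregs, 13.4%, 23.1% and 13.3% in SP/CD127-/lo Tregs and 22.2%, 13.6% and 43.7% in SP/CD127hi Tregs. In the graft it was 10.9%, 10.5% and 13.8%. The CD4+ and graft libraries were close to one another, while single Treg libraries stood far from the other 2 of their group.

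In the node Trbv3 varied most. It took 35.0%, 21.9% and 24.5% in DLN/naive Tregs, 15.8%, 47.3% and 8.21% in DLN/CD127-/lo Tregs and 23.2%, 12.6% and 21.5% in DLN/CD127hi Tregs. The highest value rested on 88 of 186 reads (95% exact Clopper-Pearson interval 40.0% to 54.8%), and that of SP/CD127hi Tregs on 206 of 471 reads (39.2% to 48.4%). Such intervals cover counting error only, since reads are PCR copies without molecular identifiers. Over 27 libraries the mean was 19.04% (SD 9.61), and Trbv3 led in 19 of 27.

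Segments differ in length, with annotated transcripts of 335 to 566 bases in Trbv and 328 to 595 bases in Trav. Per base of transcript, Trbv3 took 16.7% of Trbv (SD 8.58, n = 27) and led in 13 of 27 libraries. Trbv13-2 led in 8 and Trbv13-3 in 4. Trbv19, the longest at 566 bases, went from rank 4 by reads to rank 7 per base. The order of the leading segments thus depends in part on the scale.

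Trbv13-2 and Trbv13-3, neighbours in the locus, followed Trbv3 on both scales. By reads, Trbv13-3 took 9.48% (SD 4.65, n = 27) and Trbv13-2 took 9.33% (SD 3.68), and per base 11.1% (SD 5.35) and 10.9% (SD 4.30). These 2 segments differed from each other by less than the spread between libraries. Trbv13-2 had 13.7%, 14.3% and 12.5% of Trbv reads in SP/naive Tregs, above all 6 spleen CD4+ libraries, which were 7.86%, 6.18% and 7.79% in naive and 11.3%, 6.42% and 7.62% in tolerant mice. The other splenic Tregs overlapped these CD4+ libraries, with Trbv13-2 at 5.49% to 10.97% in SP/CD127-/lo and 4.51% to 14.25% in SP/CD127hi Tregs. In DLN/CD127hi Tregs it went from 0% through 7.64% to 14.4%.

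Trbv13-3 was at 24.9% in replicate 2 of DLN/CD127hi Tregs, beside 10.1% and 5.37% in the other 2. The 3 segments of the Trbv13 family together took 23.8% of Trbv reads over 27 libraries (SD 6.04), with 23.5% ± 3.99 in spleen CD4+ cells (n = 6), 23.1% ± 4.69 in splenic Tregs (n = 9), 23.6% ± 9.10 in the graft (n = 3) and 24.8% ± 8.004 in the node (n = 9). These means differed by less than the SD of any of the 4 sets.

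Trbv19 took 7.61% (SD 3.91), Trbv12-2 7.58% (SD 3.14) and Trbv20 6.14% (SD 3.90) of Trbv reads over 27 libraries. Trbv3 and Trbv13-2 had a mean share of 5% or more in all 9 groups, Trbv13-3, Trbv19 and Trbv12-2 in 8 and Trbv20 in 7. The 5 largest segments of a library held 54.0% of its Trbv reads in spleen CD4+ cells and 69.7% in the node, on average. Every one of the 22 Trbv segments had reads in at least 4 libraries.

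Some Trbv segments were high in 1 library or in a few. Trbv26 had 16.4% in replicate 2 of SP/naive CD4+ cells (interval 14.2% to 18.7%), beside 3.60% and 3.57% in the other 2. Trbv17 had 16.1%, 0% and 7.07% in DLN/CD127hi Tregs, and reached 9.43% in a DLN/naive and 7.23% in a graft library. Trbv14 had 10.2% in replicate 2 of DLN/CD127-/lo Tregs (interval 6.26% to 15.5%), against a median of 0.366% over 27 libraries. Trbv15 had 11.1%, 6.90% and 4.63% in DLN/CD127hi Tregs and 0% in all 3 DLN/CD127-/lo libraries, which did not overlap. Outside the node it reached 8.1% in a graft library. The edgeR test of Trbv15 between these groups gave an adjusted p of 0.0544. With the Trbv total as library size it gave 0.0442.

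**Figure D2:**
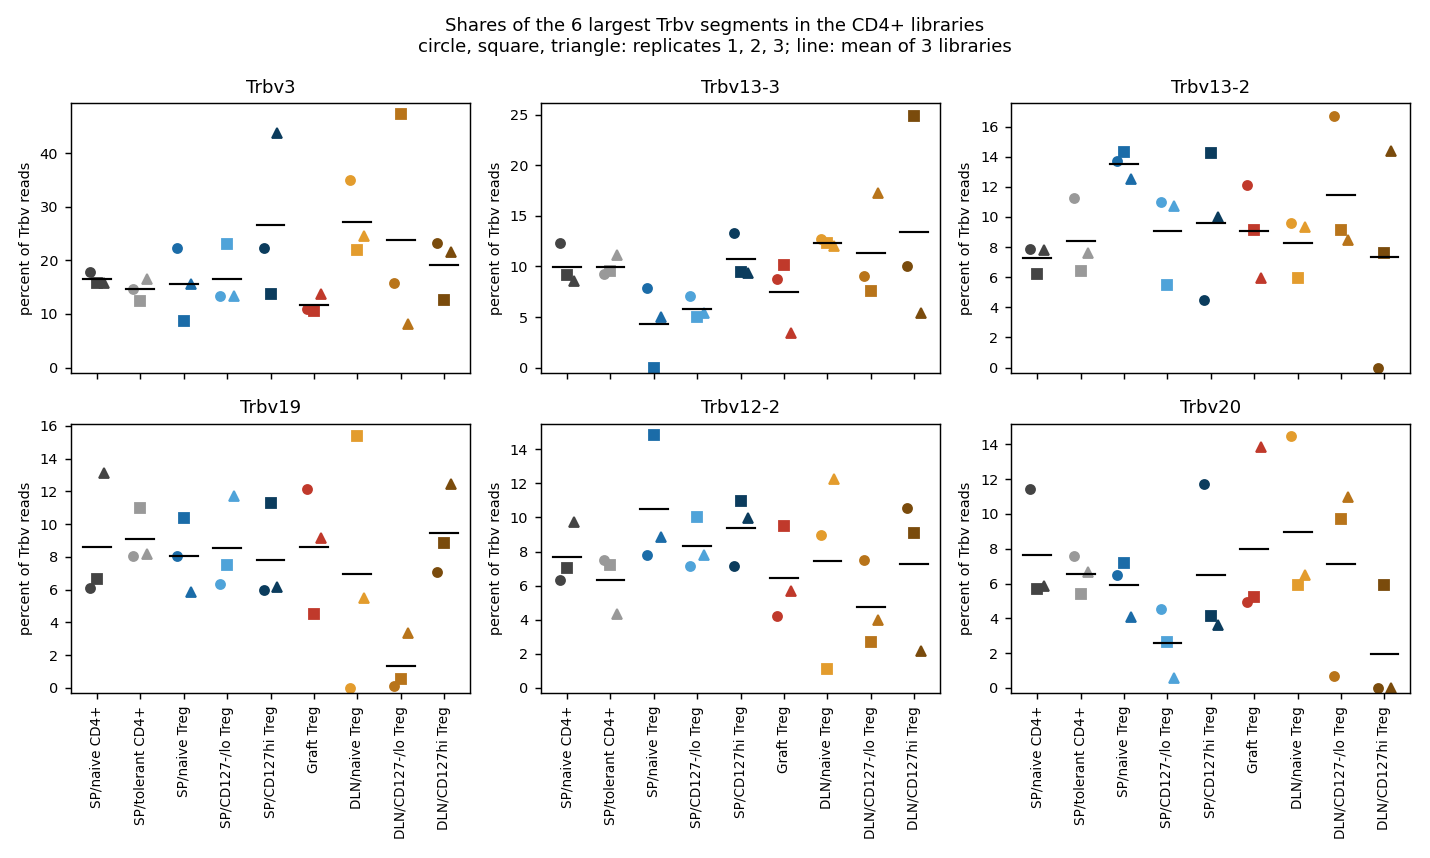
Percent of Trbv reads (y axis, a scale of its own in each panel) for the 6 Trbv segments with the largest mean share, by group of CD4+ libraries, with circles, squares and triangles for replicates 1, 2 and 3 and a line at the mean. Trbv3 lies at 12.45% to 17.9% in the 6 spleen CD4+ libraries and reaches 43.7% in SP/CD127hi and 47.3% in DLN/CD127-/lo Tregs.

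Trav reads were spread over more segments, and no segment led as Trbv3 did. Trav14-1 had the largest mean share of Trav reads, 5.59% (SD 4.31, n = 27), followed by Trav14-2 with 5.37% (SD 4.12), Trav7-5 with 4.54% (SD 5.31), Trav14d-3-dv8 with 4.45% (SD 4.40) and Trav5-4 with 4.01% (SD 5.35). Each SD was close to or above its mean, so the order of these 5 did not stand clear of the spread between libraries. Per base of transcript, Trav14-1 (5.45%), Trav14-2 (5.38%) and Trav7-5 (5.20%) came first. In 27 libraries 15 different segments were the largest by reads and 13 per base.

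Trav14-1 had 9.71%, 6.88% and 6.83% of Trav reads in SP/naive CD4+ cells and 10.5%, 6.86% and 4.65% in SP/tolerant CD4+ cells. In SP/CD127hi Tregs it had 0.417%, 14.99% and 7.66%, and in DLN/CD127hi Tregs 0%, 10.7% and 8.52%. Libraries of the same Treg group could thus lack the segment or have it among their largest, while the 6 CD4+ libraries differed by less.

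Trav14d-3-dv8, which can also serve the delta chain, had 6.998%, 14.2% and 10.9% in SP/naive CD4+ cells and 7.62%, 7.71% and 6.21% in SP/tolerant CD4+ cells. It was 4.00%, 7.59% and 4.68% in SP/naive Tregs, 1.75%, 9.69% and 2.58% in SP/CD127-/lo Tregs and 3.42%, 2.50% and 15.3% in SP/CD127hi Tregs. In the graft it was 0%, 1.84% and 0%. Outside the spleen most libraries were low or at 0. Its log2 fold change in splenic Tregs against CD4+ cells was -2.22 (SE 0.939, adjusted p = 0.353, edgeR). Trdc, the delta constant gene, was at 0 to 38.4 CPM in the CD4+ libraries and at 0 in all 3 SP/naive CD4+ libraries. Together, Trdc and 3 gamma constant genes summed to 0 to 51.9 CPM in SP/naive CD4+ libraries, and the part of delta chains in the reads of this segment was not tested.

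Summed over its 9 segments, the Trav14 family took 26.7% ± 3.86 of Trav reads in spleen CD4+ cells (SD, n = 6), 17.2% ± 6.07 in splenic Tregs (n = 9), 18.9% ± 10.5 in the node (n = 9) and 5.64% ± 2.96 in the graft (n = 3). By library it was 32.1%, 27.7% and 21.5% in SP/naive and 28.3%, 27.3% and 22.95% in SP/tolerant CD4+ cells. In the graft it was 3.81%, 4.06% and 9.05%, below the 15 libraries of CD4+ cells and Tregs of the spleen, where the lowest, a library of SP/naive Tregs, had 9.67%. In the node it went from 0% in replicate 2 of DLN/CD127-/lo Tregs to 33.5% in replicate 2 of DLN/naive Tregs. This family was looked at after its values were seen, and its sum has no test.

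Other families moved with single libraries. The 13 Trav7 segments took 21.2%, 50% and 12.35% of Trav reads in DLN/CD127-/lo Tregs, where replicate 2 had 23.9% on Trav7-5 alone (55 of 230 reads, interval 18.6% to 30.0%). Trav7-5 had 3.09%, 13.9% and 11.2% in SP/naive Tregs and 2.75%, 5.49% and 0.368% in SP/naive CD4+ cells, which overlapped.

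In the alpha chain, single libraries also stood far over the median of 27. Trav5-4 took 25.6% of Trav reads in replicate 3 of DLN/CD127hi Tregs (interval 21.9% to 29.5%) and 0% in the other 2, with a median of 2.26% over 27 libraries. Trav19 took 17.1% in replicate 3 of DLN/naive Tregs (15.4% to 18.98%) and 14.7% in replicate 1 of DLN/CD127-/lo Tregs. Trav10 took 18.25% in replicate 3 of SP/CD127hi Tregs (15.7% to 21.1%), the same library in which Trbv3 took 43.7%. Trav4-4-dv10 took 16.2% in replicate 1 of DLN/CD127hi Tregs, and Trav16n took 17.1% in replicate 3 of graft Tregs.

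Trav17 was listed at 0 in all 3 SP/naive CD4+ libraries and had 2.19%, 8.90% and 2.52% in SP/naive Tregs. In SP/CD127-/lo Tregs it had 3.30%, 2.21% and 8.44%, in SP/CD127hi Tregs 0%, 10.3% and 0%, and in SP/tolerant CD4+ cells 1.55%, 1.53% and 0.360%. Splenic Tregs against CD4+ cells gave a log2 fold change of 4.20 (SE 1.447, adjusted p = 0.151, edgeR) on the CPM scale. With the Trav total as library size the log2 fold change was 5.24 (SE 1.412) and the adjusted p 0.0249, so the call depended on the scale.

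**Figure D3:**
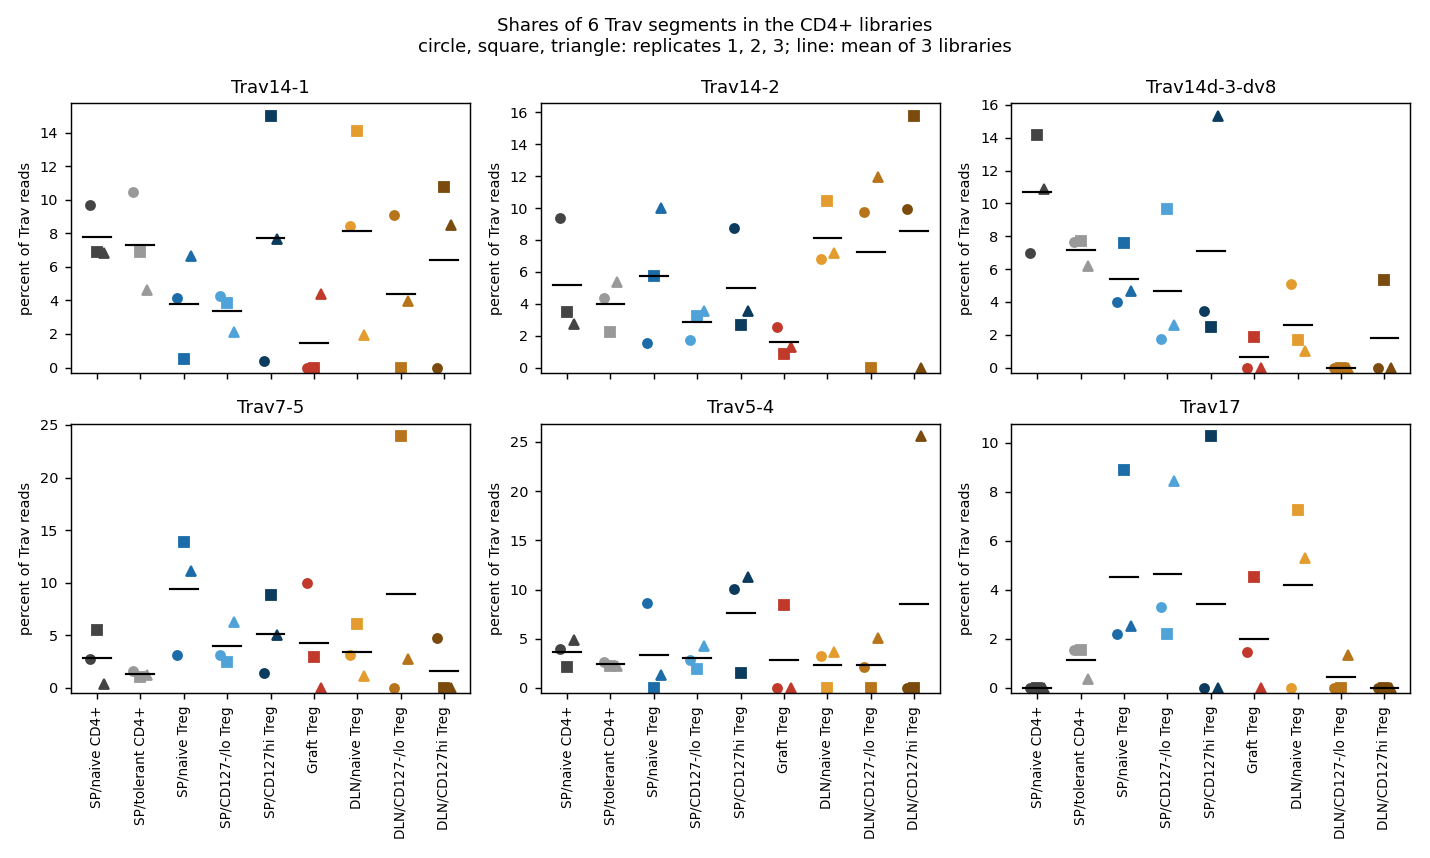
Percent of Trav reads (y axis, a scale of its own in each panel) for 6 Trav segments, by group of CD4+ libraries, with circles, squares and triangles for replicates 1, 2 and 3 and a line at the mean. Trav14d-3-dv8 lies at 6.21% to 14.2% in the 6 spleen CD4+ libraries and at 0% in 2 of 3 graft libraries, and Trav5-4 reaches 25.6% in 1 DLN/CD127hi library.

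Of the 130 members, 89 (67 Trav and 22 Trbv) reached 1 CPM in at least 1 library and entered the edgeR fit over 25347 genes. The other 41, all Trav, were not tested. A call is an adjusted p under 0.05. The share of all genes called by the same tool is given with these counts, edgeR's before that of DESeq2 where both are given.

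For splenic Tregs against splenic CD4+ cells, 1 of 89 segments was called, beside 1.36% of all genes. It was Trav15-2-dv6-2, a dual named segment with 79.4% unique windows, which fell. It had 70, 28 and 92 reads in SP/naive and 22, 29 and 36 in SP/tolerant CD4+ cells. Among the 9 splenic Treg libraries it had 10 reads in replicate 2 of SP/naive Tregs, 2 in replicate 1 of SP/CD127-/lo Tregs and 0 in the other 7. The CD4+ libraries were all above the Treg libraries in reads, but as shares of Trav reads the groups overlapped, since 10 reads were 2.62% of the Trav reads of that SP/naive Treg library and the lowest CD4+ library had 0.597%. The levels were 13.8 ± 10.4 CPM (SD, n = 6) and 0.460 ± 1.21 CPM (SD, n = 9), with a log2 fold change of -5.24 (SE 1.449, adjusted p = 0.0319, edgeR). The call was lost without replicate 3 of SP/naive CD4+ cells, replicate 3 of SP/tolerant CD4+ cells or replicates 1 or 3 of SP/naive Tregs, each left out alone, on the scale of Trav shares, with at least 10 reads in 3 libraries as the filter and in DESeq2, which called 2 other segments, Trav14-3 and Trav3-4, beside 2.53% of genes.

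In that comparison the other 88 tested segments did not pass. Of 66 Trav segments above the floor of 3 reads in a group, 10 had a higher mean CPM in Tregs and the median log2 ratio was -1.16, with groups under the floor set to it, and of 22 Trbv segments 2 were higher, with a median of -0.808. The median fitted log2 fold change was -1.88 for Trav and -1.13 for Trbv, beside -0.05 over all genes. At an unadjusted p under 0.05 there were 27 of 89 segments, beside 9.11% of genes.

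Within naive mice (SP/naive Tregs against SP/naive CD4+ cells), 0 of 89 segments were called by edgeR and 1 by DESeq2, beside 0.264% and 0.73% of all genes, with 14 of 89 segments and 6.71% of genes at an unadjusted p under 0.05. Within tolerant mice, SP/CD127hi Tregs against SP/tolerant CD4+ cells gave 0 of 89 by edgeR and 1 by DESeq2, beside 0.324% and 1.06% of genes, with 30 of 89 segments and 8.25% of genes at an unadjusted p under 0.05. All 22 Trbv segments had a lower mean CPM in the SP/CD127hi Tregs there, with a median log2 ratio of -2.2. SP/CD127-/lo Tregs against the same CD4+ cells gave 0 of 89 by both tools, beside 0.284% and 0.876% of genes, with 1 of 89 segments and 7.2% of genes at an unadjusted p under 0.05. The median log2 ratio there was -0.3 for Trbv and -0.719 for Trav. Both comparisons share the SP/tolerant CD4+ libraries.

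Between CD4+ cells of tolerant and naive mice no segment was called. SP/tolerant against SP/naive CD4+ cells gave 0 of 89 by edgeR and by DESeq2, beside 0.107% and 0.324% of genes, with 5 of 89 segments and 7.01% of genes at an unadjusted p under 0.05. Mean CPM was higher in tolerant mice for 19 of 22 Trbv segments (median log2 ratio 0.881) and for 35 of 63 Trav segments (median 0.219). The lowest Trbv sum of these 6 libraries was that of replicate 2 of SP/naive CD4+ cells, at 299.94 CPM.

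Between the Treg subsets of the tolerant spleen, SP/CD127hi against SP/CD127-/lo Tregs gave 0 of 89 by edgeR and 1 by DESeq2, beside 0.0907% and 0.359% of genes, with 24 of 89 segments and 6.74% of genes at an unadjusted p under 0.05. All 22 Trbv segments had a lower mean CPM in SP/CD127hi Tregs, with a median log2 ratio of -1.95, and 17 of 64 Trav segments were higher, with a median of -0.785. Trbv12-1 had 1.02%, 0% and 0% of Trbv reads in SP/CD127hi and 5.36%, 3.39% and 3.47% in SP/CD127-/lo Tregs, which did not overlap, with a log2 fold change of -5.28 (SE 1.813, adjusted p = 0.451, edgeR). It was singled out after its values were seen. Cd3d and Cd3g, of the CD3 complex, fell in the same comparison by 1.36 and 1.43 on the log2 scale (adjusted p = 0.00826 and 0.0107, edgeR).

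Against SP/naive Tregs, SP/CD127hi Tregs gave 0 of 89 by edgeR and 2 by DESeq2, beside 0.0197% and 0.13% of genes, with 16 of 89 segments and 5.09% of genes at an unadjusted p under 0.05. SP/CD127-/lo Tregs gave 0 of 89 by edgeR and 1 by DESeq2, beside 0.071% and 0.15% of genes, with 6 of 89 segments and 5.46% of genes at an unadjusted p under 0.05. In the latter all 22 Trbv segments had a higher mean CPM, with a median log2 ratio of 1.3. Trac rose there by 1.74 on the log2 scale (SE 0.365, adjusted p = 0.00608, edgeR).

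Graft Tregs gave no call against any splenic subset in edgeR. Against SP/naive Tregs there were 0 of 89, and 1 by DESeq2, beside 0.13% and 0.722% of genes, with 9 of 89 segments and 7.93% of genes at an unadjusted p under 0.05. Against SP/CD127hi Tregs there were 0 of 89, and 2 by DESeq2, beside 0.103% and 1.03% of genes, with 23 of 89 segments and 8.74% of genes at an unadjusted p under 0.05. Against SP/CD127-/lo Tregs there were 0 of 89 by both tools, beside 0.0829% and 0.785% of genes, with 10 of 89 segments and 7.66% of genes at an unadjusted p under 0.05. Trbv16 had 5.72%, 10.1% and 8.28% of Trbv reads in the graft, where it was among the leading segments. It was as high in SP/CD127-/lo Tregs, with 10.55%, 10.2% and 3.86%. The summed level of 4 kidney genes was 14.9 to 779 CPM in graft libraries, and its part in these values was not tested.

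In the node, DLN/CD127hi against DLN/naive Tregs gave 1 of 89, beside 0.951% of genes. Trav19 fell, with 20, 25 and 294 reads in DLN/naive and 0 in each DLN/CD127hi library. Its level in DLN/CD127hi Tregs was at least 71.6-fold lower, taken against a floor of 3 reads over the group (adjusted p = 0.0273, edgeR). Replicate 3 of DLN/naive Tregs held most of the reads, and without it the call was lost and the bound was 15.4-fold. Without replicate 2 of DLN/CD127hi Tregs the bound was 43.7-fold. The call was also lost without any 1 of the 3 DLN/CD127hi libraries, and on the scale of Trav shares. DESeq2 called Trav19 and Trav12-2, beside 3.78% of genes, and 24 segments were at an unadjusted p under 0.05 in edgeR, beside 10.6% of genes.

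DLN/CD127-/lo against DLN/naive Tregs gave 0 of 89 by edgeR and 2 by DESeq2, beside 0.355% and 2.47% of genes, with 20 of 89 segments and 8.79% of genes at an unadjusted p under 0.05. DLN/CD127hi against DLN/CD127-/lo Tregs gave 0 of 89 by edgeR and 4 by DESeq2, beside 0.418% and 2.88% of genes, with 23 of 89 segments and 8.75% of genes at an unadjusted p under 0.05. The difference of this contrast between spleen and node, tested as an interaction, gave 0 of 89 by edgeR and 4 by DESeq2, beside 0.118% and 1.16% of genes, with 22 of 89 segments and 7.82% of genes at an unadjusted p under 0.05. B cell genes summed to 71.8 to 191 CPM in DLN/CD127-/lo and 138 to 504 CPM in DLN/CD127hi Tregs.

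SP/naive CD4+ cells against CD45+CD4- cells of the same spleens, the control contrast, gave 5 of 89 segments (5.62%), all higher in CD4+ cells, beside 1.04% of genes. DESeq2 called 14, beside 2.43% of genes, and 48 of 89 segments were at an unadjusted p under 0.05 in edgeR, beside 9.63% of genes. Trbv3 had 513, 166 and 380 reads against 21, 44 and 78 (log2 fold change 3.01, SE 0.793, adjusted p = 0.0230, edgeR). Trbv13-3 had 352, 96 and 206 against 0, 2 and 39 (4.09, SE 1.133, adjusted p = 0.0397). Trav10 had 126, 129 and 31 against 1, 0 and 0 (7.74, SE 2.191, adjusted p = 0.0479). The groups did not overlap for these 3.

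Trav5-4 had 99, 45 and 92 reads against 0 in all 3 CD45+CD4- libraries, at least 69.9-fold higher in CD4+ cells (adjusted p = 0.0125, edgeR), a bound of 46.4, 49.1 and 44.3-fold without replicates 1, 2 and 3 of CD45+CD4- cells. Trav9-1 had 121, 21 and 21 against 0, at least 48.3-fold higher (adjusted p = 0.0468), a bound that was 18.7-fold without replicate 1 of SP/naive CD4+ cells and 30.6-fold without replicate 3 of CD45+CD4- cells. Mean CPM was higher in CD4+ cells for 21 of 21 Trbv segments above the floor and for 54 of 58 Trav segments. Each of the 5 calls was lost in at least 3 of the 6 fits that left out 1 library, and none held on the scale of shares within the chain, which takes out the difference in total.

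Diversity was given as the effective number of segments, the exponential of the Shannon entropy of the shares, which equals the number of segments if all have the same share. For Trbv it was 13.7, 12.1 and 14.6 in SP/naive and 14.6, 15.2 and 14.6 in SP/tolerant CD4+ cells, of 22 segments. It was 12.7, 11.55 and 15.5 in SP/naive Tregs, 15.8, 13.6 and 14.8 in SP/CD127-/lo Tregs, 11.7, 13.2 and 6.09 in SP/CD127hi Tregs and 14.3, 14.6 and 14.2 in graft Tregs. Replicate 3 of SP/CD127hi Tregs, with Trbv3 at 43.7%, was the lowest of spleen and graft. The node had 5.67 to 13.4 over its 9 libraries.

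For Trav the effective number was 29.7, 20.8 and 32.96 in SP/naive and 39.6, 32.8 and 42.0 in SP/tolerant CD4+ cells. It was 21.2, 18.6 and 29.6 in SP/naive Tregs, 41.9, 29.0 and 35.1 in SP/CD127-/lo Tregs and 25.1, 20.9 and 12.3 in SP/CD127hi Tregs, so the CD127 subsets of the tolerant spleen did not overlap. Graft Tregs had 21.8, 28.2 and 17.6, and the node had 8.73 to 25.5.

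The log2 ratio of the mean effective number of SP/CD127hi to that of SP/CD127-/lo Tregs was -0.861 for Trav and -0.511 for Trbv, and counted over families in place of segments that of Trav was -0.373. Without replicate 3 of SP/CD127hi Tregs the ratios over segments were -0.618 for Trav and -0.242 for Trbv. For splenic Tregs against CD4+ cells it was -0.344 for Trav and -0.147 for Trbv, both less than the spread between replicates. Graft Tregs against splenic Tregs gave -0.206 for Trav and 0.169 for Trbv, which was also less than that spread. Without that replicate of SP/CD127hi Tregs the Trbv ratio of splenic Tregs to CD4+ cells was -0.0555 and that of graft to splenic Tregs 0.078, and without replicate 3 of graft Tregs the Trav ratio of graft to splenic Tregs was -0.0554 (-0.401 without replicate 2).

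The effective number moved with the number of reads. Over the 27 libraries Pearson's r of the effective number with log10 reads was 0.876 for Trbv (Spearman's rho 0.905) and 0.807 for Trav (rho 0.812). Within spleen and graft (18 libraries) r was 0.815 and 0.644, and within the node (9 libraries) 0.718 and 0.876. With segments counted after thinning each library to the same number of reads, r was still 0.902 and 0.826. Points share a sequencer within each tissue, and these values are a description. The node libraries had 186 to 1232 Trbv and 230 to 1718 Trav reads. SP/CD127hi Tregs had 1574, 1158 and 471 Trbv reads and 1198, 1081 and 822 Trav reads, and SP/naive Tregs had 1483, 405 and 3112 Trbv and 776, 382 and 1111 Trav reads. The SP/naive Treg library with 382 Trav reads had an effective number of 18.6, above 12.3 in the SP/CD127hi library with 822. The part of read number in these values was not tested. The effective numbers of the chains went together over libraries (r 0.751, rho 0.836).

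**Figure D4:**
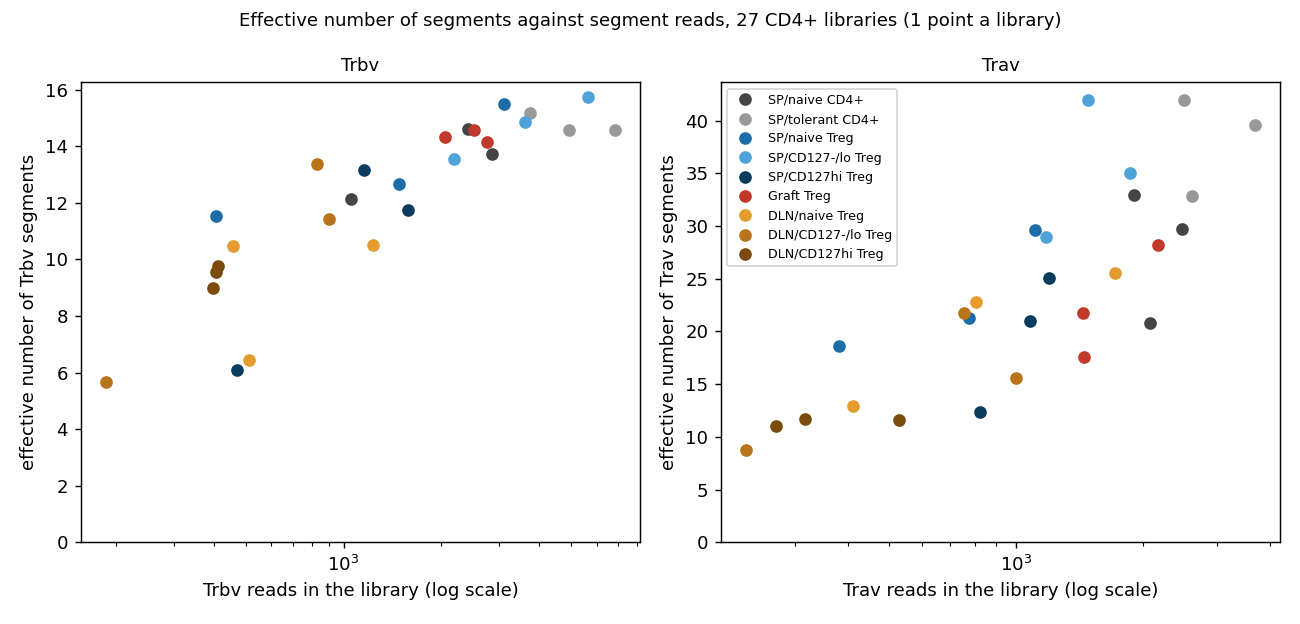
Effective number of segments (y axis) against reads on the chain in the library (x axis, log scale) for Trbv (left) and Trav (right), 1 point for each of the 27 CD4+ libraries, coloured by group. The points rise together, with r of 0.876 and 0.807, and most node libraries lie towards the lower left.

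How well replicates shared their usage was measured by the distance between 2 libraries, the sum of the absolute differences of the shares divided by 2, which is 0% for equal usage and 100% for none in common. For Trbv it was 32.5% ± 13.1 between libraries of 1 group (SD, 27 pairs) and 34.5% ± 11.1 between groups (324 pairs). For Trav it was 59.6% ± 16.2 and 63.1% ± 11.7. Libraries of a group were thus hardly closer to each other than to those of other groups, with ratios of 0.942 and 0.944. The nearest library was one of the same group for 5 of 27 libraries in either chain. Within spleen and graft alone the distances were 26.1% and 27.4% for Trbv and 52.9% and 55.6% for Trav.

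SP/tolerant CD4+ libraries were the closest set. Their mean distance was 14.8% for Trbv and 29.0% for Trav, against 28.1% and 55.4% to libraries of other groups. SP/naive CD4+ libraries followed for Trav with 44.3%, and for Trbv SP/CD127-/lo Tregs with 22.1%. SP/CD127hi Tregs were at 37.0% and 71.8%, graft Tregs at 28.4% and 65.8%, and DLN/CD127-/lo Tregs at 52.6% and 72.3%. DLN/CD127hi Tregs, at 79.7%, shared the least Trav usage of the 9 groups. The SP/tolerant CD4+ group also had the most reads on segments.

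The spread of shares can be put as the number of independent draws that would give it, 1 minus the sum of the squared mean shares, divided by the summed variances over 3 libraries. For Trbv this was 239 in SP/tolerant CD4+ cells, 63.8 in SP/naive CD4+ cells, 63.6 in SP/naive Tregs, 93.2 in SP/CD127-/lo Tregs, 23.01 in SP/CD127hi Tregs, 71.2 in graft Tregs and 12.5 to 31.6 in the groups of the node. For Trav it was 168 in SP/tolerant CD4+ cells, 19.9 in SP/CD127hi Tregs and 11.7 in DLN/CD127hi Tregs. With 3 libraries a group these values are themselves rough, and what sets the spread was not tested.

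**Figure D5:**
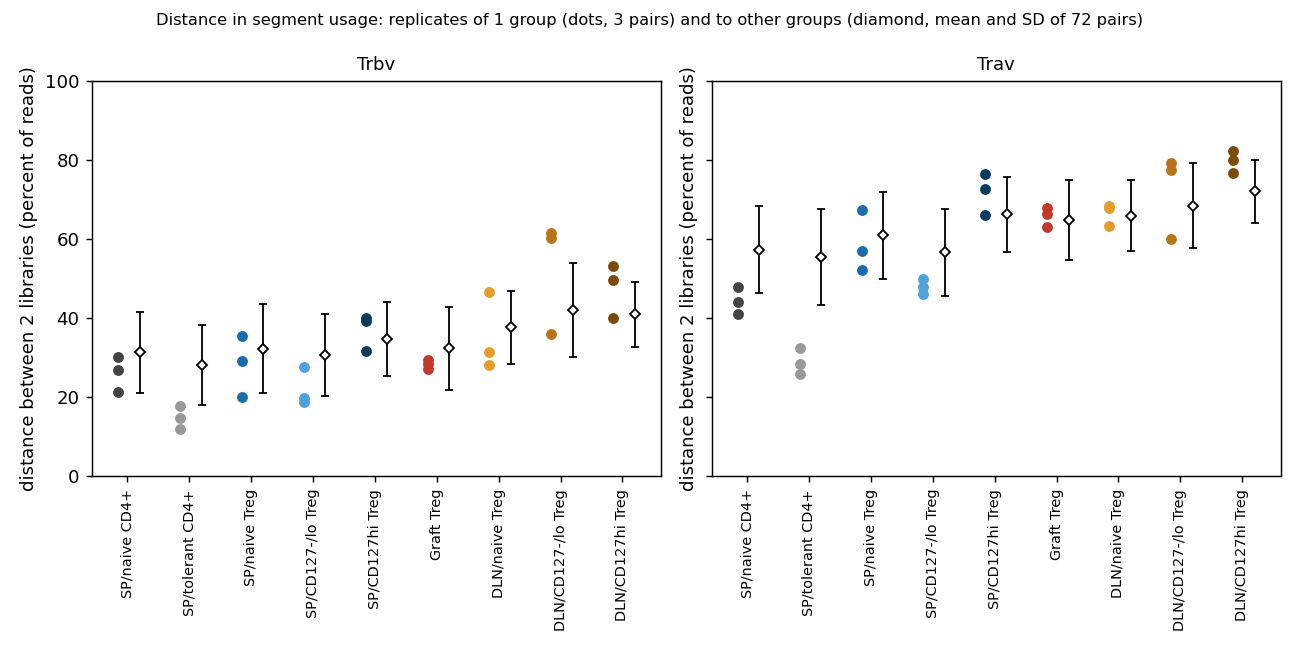
Distance in percent between libraries by group for Trbv and Trav, with dots for the 3 pairs within a group and a diamond with a bar for the mean and SD of the 72 pairs to libraries of other groups. In SP/tolerant CD4+ cells the pairs within the group average 14.8% and 29.0%, below 28.1% and 55.4% to other groups, and in most other groups dots and diamonds overlap.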

How the data were processed

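Per the labels and methods, the authors prepared cDNA with SMART-Seq v4 from sorted cells, made unstranded Nextera XT libraries, sequenced pairs of 75 bases, removed adapters with Trim Galore and mapped the pairs with STAR to mm10 plus the EGFP sequence. The deposited values are unnormalized counts per gene, 1 for a pair of reads, over both strands. HTSeq is named in the methods, while the layout is the one STAR writes. Columns by strand were not used.

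Symbols and positions came from GENCODE vM21 on GRCm38 (119 of 31054 features had none). Shares were taken within the Trbv or the Trav reads of a library. The uniqueness of a segment is the share of its 75-base windows found in no other annotated V segment. Genes with 1 CPM in at least 1 library were kept (25347), TMM factors were computed over 33 libraries, and 1 mean per group was fitted in R 4.3.3 with edgeR 4.0.16 (quasi-likelihood test, Benjamini-Hochberg adjustment over all genes tested, calls at 0.05). DESeq2 1.42.0, edgeR's likelihood ratio test and other settings were alternatives. The code was tested on simulated data. Tables were made with Python 3.11.15, pandas 2.3.3 and scipy 1.17.1. In the CD4+ libraries 3 reads equalled 0.650 to 3.55 CPM.

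Segments were named by a rule: a mean share of at least 5% (Trbv) or 3% (Trav) in a CD4+ group, up to 5 calls per direction and comparison, the 5 largest excesses of 1 library per chain, members without reads or with near-identical copies as examples, and lists (constant genes, CD3 genes, NKT and MAIT segments, delta and gamma genes, Rag1, Rag2 and Dntt, pseudogene segments). Members and lists were chosen with earlier results of these data known. Libraries with the same replicate number were not treated as paired: over 165 pairs their deviations correlated at -0.081 to 0.103, and in 0 of 55 pairs of groups were all correlations over 0.1. Low correlations do not show that the pools of mice differed.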

Additional observations from a re-analysis of the deposited data

How the results depend on the processing

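No result changed direction under the alternatives run. Some of the calls rested on few reads. The number of segments called moved with DESeq2 in 13 of 16 comparisons and with the other settings of the fit in fewer. DESeq2 called 2 for SP Tregs against SP CD4+ cells, 1 each for SP/naive Tregs and SP/CD127hi Tregs against their CD4+ cells, 1 between the CD127 subsets of the spleen, 2 and 1 for the CD127hi and the CD127-/lo subset against SP/naive Tregs, 1 and 2 for graft Tregs against SP/naive and SP/CD127hi Tregs, 2, 2 and 4 for DLN/CD127hi and DLN/CD127-/lo against DLN/naive Tregs and against each other, 14 for CD4+ against CD45+CD4- cells and 4 for the interaction. In what follows the share of all genes called under the same setting is in parentheses. edgeR's likelihood ratio test called 2 (1.12%), 1 (0.509%) and 3 (0.683%) in those comparisons of the node and 2 (0.276%) for the interaction, and RLE factors called 3 (0.99%) for CD4+ against CD45+CD4- cells and 1 (0.17%) for the interaction. With at least 10 reads in 3 libraries, counts of 84 segments were 0 (1.81%) for SP Tregs against CD4+ cells, 0 (0.999%) for DLN/CD127hi against DLN/naive Tregs and 1 (1.32%) for CD4+ against CD45+CD4- cells. Without a filter, of 95 segments 1 (0.489%) was called for DLN/CD127hi against DLN/CD127-/lo Tregs and 2 (0.186%) for the interaction. With the groups compared alone in the fit, counts were 4 of 87 (3.59%) for SP Tregs against CD4+ cells, 6 of 87 (2.14%) for SP/CD127hi Tregs against SP/tolerant CD4+ cells, 0 of 76 (0.095%) for DLN/CD127hi against DLN/naive Tregs and 9 of 79 (2.49%) for CD4+ against CD45+CD4- cells. With shares within the chain they were 0 (0.947%), 1 (0.442%) and 0 (1.02%) for DLN/CD127hi against DLN/naive, DLN/CD127hi against DLN/CD127-/lo and CD4+ against CD45+CD4-. By families, the ratio of Trav diversity between the splenic CD127 subsets was -0.373 in place of -0.861. The cause of these changes was not tested.

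With a replicate block, which rests on numbers not known to pair the libraries, 3 segments (1.53%) were called for SP Tregs against CD4+ cells, 1 (0.197%) for graft against SP/CD127hi Tregs, 1 (0.426%) for DLN/CD127hi against DLN/CD127-/lo Tregs, 6 (1.15%) for CD4+ against CD45+CD4- cells and 1 (0.189%) for the interaction, and the other 11 counts did not move.

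Leaving out 1 library at a time gave 0 to 2 calls for SP Tregs against CD4+ cells (0.897% of genes at 2), 0 to 2 for DLN/CD127hi (1.47% at 2) and 0 to 1 for DLN/CD127-/lo against DLN/naive Tregs (1 without replicate 2 of DLN/naive Tregs, 0.439%), 0 to 2 for DLN/CD127hi against DLN/CD127-/lo Tregs (2 without replicate 2 and 1 without replicate 3 of DLN/CD127hi Tregs, 0.92% and 0.578%), 0 to 7 for CD4+ against CD45+CD4- cells (0 without replicate 2 of CD45+CD4- cells, 0.811%, and 7 without replicate 2 of CD4+ cells, 0.857%) and 0 to 3 for the interaction (3 without replicate 3 of DLN/CD127-/lo Tregs, 0.541%). It gave 0 in the other 10 comparisons. Mean shares over 27 libraries stayed at 18% to 19.5% for Trbv3, 8.88% to 9.84% for Trbv13-3 and 9.05% to 9.69% for Trbv13-2. The Trav log2 ratio of SP Tregs to CD4+ cells stayed at -1.40 to -1.17 and that of Trbv at -1.06 to -0.617, the diversity ratios at -0.459 to -0.252 (Trav) and -0.19 to -0.0555 (Trbv) for SP Tregs against CD4+ cells, -1.09 to -0.618 and -0.724 to -0.242 for the splenic CD127 subsets and -0.401 to -0.0554 and 0.078 to 0.212 for graft against SP Tregs, and the distance ratios at 0.904 to 0.969 (Trbv) and 0.925 to 0.974 (Trav). Depth limits the node most, where a Trbv share rested on as few as 186 reads.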

Other observations

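Receptor genes outside the members gave further values. Dntt, the polymerase that adds bases at the joins during recombination, was at 43.6, 7.13 and 0.341 CPM in SP/naive CD4+ cells (replicates 1, 2 and 3) and 13.04, 15.6 and 17.4 CPM in SP/tolerant CD4+ cells. It was 0 in all graft and SP/CD127-/lo Treg libraries. Rag1, which cuts the segments, was at most 1.18 CPM in any library, and Rag2 at most 1.72 CPM. Summed with 3 gamma constant genes, Trdc was at 0 to 104 CPM in the CD4+ libraries and 55.7 to 225 CPM in CD45+CD4- cells. The 33 Trav and Trbv segments annotated as pseudogenes had 116 to 224 reads in spleen CD4+ cells, 0 to 131 in splenic Tregs, 0 to 42 in the node, and 1, 266 and 141 in graft Tregs. J segments had 293 to 3211 reads in the CD4+ libraries.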
